A study of Rattus norvegicus with 8 samples.

Results

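The regions described are 1-Mb windows of CpG-poor DNA on rat chromosomes 1 to 20 (build rn6). A CpG was taken as CpG-poor where its 200-bp tile held under 5 measured CpGs, as a mean over the samples, and only CpGs measured in all 8 samples were used. A window was a member where it held 200 or more such CpGs. Of 2628 windows with any shared CpG-poor CpG, 1765 were members. They held 902758 of the 1009705 shared CpG-poor CpGs. The level of a window in a sample is the percentage of its methylated calls, that is, C calls among all C and T calls on its CpGs, and differences between levels are given in percentage points. The rule used no methylation value.

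DNA methylation was measured by reduced representation bisulfite sequencing (RRBS), in which DNA is cut with MspI and TaqaI, treated with bisulfite and sequenced, so that a methylated cytosine is read as C and an unmethylated cytosine as T. The samples were 5 urothelial carcinomas (UC 1 to UC 5) of F344/DuCrj rats given dimethylarsinic acid (DMAV) at 200 ppm in the drinking water for 104 weeks, and 3 bladders (control 1 to control 3) of rats of the same strain given 0 ppm. All rats were 10 weeks old at the start and, per the study's methods, male. The UCs were identified macroscopically without histology, the sources used here do not say whether they came from 5 rats, and the controls are called urothelium in the labels but bladder tissue in the methods. In such bulk tissue a change of methylation within cells and a change in the mixture of cell types cannot be told apart.

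Most CpGs of a mammalian genome lie far from CpG islands, in introns, repeats and the DNA between genes, and are methylated by DNMT1, which copies the mark after replication, together with DNMT3A and DNMT3B, which add it anew. CpG islands at promoters are in contrast mostly unmethylated in normal tissue. Loss of methylation from CpG-poor DNA over long blocks, often together with gain at islands, is a known feature of many tumours, and such blocks often lie in late-replicating DNA attached to the nuclear lamina. RRBS reads CpG-poor DNA only where its restriction sites happen to lie, so a window is sampled at scattered short fragments.

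A member window held 200 to 1597 CpGs (median 467) and rested on 2633 to 140952 calls in a sample (median 9954.5). The binomial standard error of a level was therefore 0.121 to 0.908 points (median 0.457). Sample totals ranged from 51434938 to 73836223 calls, of which 17389748 to 23820859 lay on the member CpGs. Counting error is small against the differences described here, and the spread between samples sets the precision.

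UC 1 with UC 2, and UC 4 with UC 5, were more alike over the windows than other UCs. The SD over windows of the difference between a pair of samples was 1.66 points for UC 1 and UC 2 and 1.22 points for UC 4 and UC 5. It was 2.11 to 2.51 points for the other UC pairs and 1.16 to 1.58 points for pairs of controls. Results are therefore also given with each of these pairs merged into 1 sample, which leaves 3 UCs and a smallest possible exact p of 0.1.

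CpG-poor DNA as a whole was higher in some UCs and lower in others. The share of methylated calls over all member windows was 69.2%, 68.7% and 68.8% in controls 1 to 3, and 70.7%, 69.9%, 68.1%, 67.5% and 66.8% in UC 1 to UC 5. UC 1 and UC 2 lay above every control and the other 3 UCs below every control. The group means were 68.9% ± 0.273 (SD, n = 3) and 68.6% ± 1.64 (SD, n = 5), a difference of -0.341 points (two-sided exact permutation test, p = 0.75).

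The median window showed the same order. It stood at 70.6%, 70.2% and 70.2% in the controls and at 72.1%, 71.0%, 69.3%, 68.8% and 68.0% in UC 1 to UC 5. The difference of the means was -0.480 points, from 70.3% ± 0.249 (SD, n = 3) to 69.8% ± 1.67 (SD, n = 5; exact permutation test, p = 0.643, adjusted p = 0.821 over the 9 values per sample compared). The UCs therefore differed from one another much more than the controls did. Windows under 50% methylated were rare in both groups, at 0.491% ± 0.118 of windows in the controls and 0.385% ± 0.135 in the UCs (SD, n = 3 and 5; exact permutation test, p = 0.411).

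**Figure D1:**
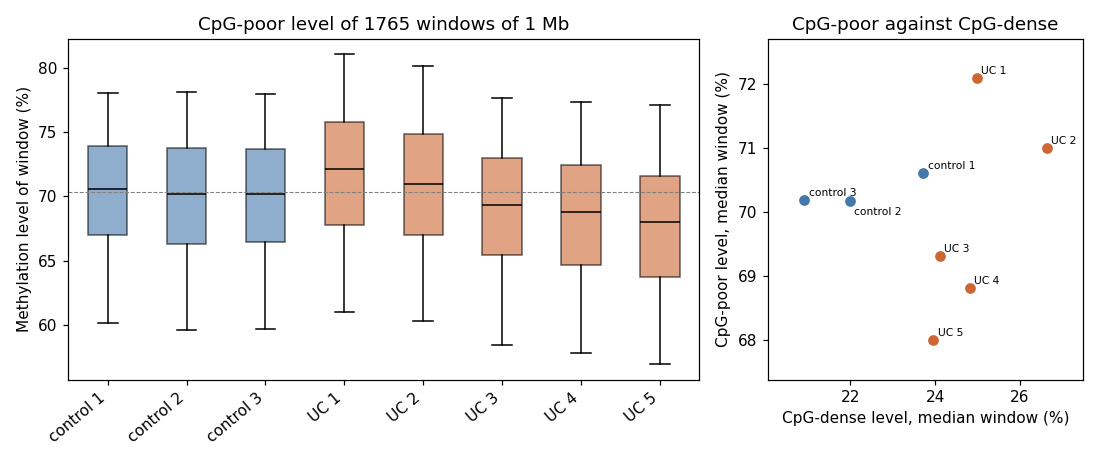
Left, methylation level (%) of the 1765 windows in each sample, with the median as a line, the middle 50% of windows as a box and the 5th to 95th percentile as whiskers; the dashed line is the mean of the control medians. Right, the median CpG-poor level of each sample against the median level of CpG-dense CpGs in the same windows (both in %); the 5 UCs lie to the right of the 3 controls, and on both sides of them in height, from 68.0% to 72.1%.

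CpG-dense DNA of the same windows gave another picture. CpGs in tiles of 5 or more CpGs, counted in the 1735 windows that held at least 50 of them, had a median window level of 23.7%, 22.0% and 20.9% in the controls and of 25.0%, 26.6%, 24.1%, 24.8% and 23.9% in UC 1 to UC 5. Every UC was above every control (22.2% ± 1.41 and 24.9% ± 1.07, SD, n = 3 and 5; exact permutation test, p = 0.0179, the smallest it can give, adjusted p = 0.0804). With the calls of all CpG-dense CpGs pooled the levels were 23.7%, 22.2% and 20.8% in the controls and 24.9%, 26.2%, 23.9%, 24.3% and 23.6% in UC 1 to UC 5, so that UC 5 then overlapped the controls. The CpG-dense level of a window was higher in the UCs in 1474 of the 1735 windows.

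The median over windows of the gap between the CpG-poor and CpG-dense level was 46.3 ± 1.24 points in the controls and 43.2 ± 1.21 points in the UCs (SD, n = 3 and 5; -3.10 points, exact permutation test, p = 0.0357, adjusted p = 0.0804). It was 45.0, 46.4 and 47.5 points in the controls and 45.3, 42.7, 43.3, 42.5 and 42.3 points in UC 1 to UC 5, so that only UC 1 overlapped the controls. With merged pairs the gap differed by -3.05 points (exact permutation test, p = 0.1, the smallest possible).

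Individual windows moved in both directions. The difference between the UC mean and the control mean had a median of -0.379 points over the windows, with a 5th to 95th percentile of -5.51 to 4.33 points and a range of -18.3 to 9.05 points. Its SD was 3.02 points, against 0.358 points from counting error alone. The difference was within 2 points in 906 windows (51.3%) and below 0 in 982 (55.6%).

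Windows were called where the group means differed by over 5 points and the adjusted p was under 0.05 (quasi-binomial fit of the C and T counts, limma moderation, Benjamini-Hochberg adjustment). By this rule 117 windows were lower in the UCs (6.63% of the 1765) and 61 were higher (3.46%). Without the 5-point limit, 334 windows passed the adjusted p, 207 lower and 127 higher, and 596 had an unadjusted p under 0.05. Counted without a model, every UC lay below every control in 297 windows (16.8%) and above every control in 217 windows (12.3%). Of the called windows, 110 of the 117 lower and 59 of the 61 higher ones were separated in this way.

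The balance of lower and higher calls depended on the processing and on single samples. With each sample taken relative to its own median window, 91 windows were lower and 82 higher. With tiles of under 8 CpGs, over 1921 windows, the calls turned to 88 lower and 90 higher. Windows with every UC on 1 side of every control then turned to 240 below and 301 above. With merged pairs the calls were 95 lower and 44 higher. Without control 1 they were 68 and 46, without control 3 they were 70 and 30, without UC 2 they were 126 and 39, and without UC 5 they were 78 and 72.

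The called lower windows were compared with the called higher ones. Their median level was 72.8%, 73.3% and 72.4% in the controls and 67.8%, 65.8%, 67.3%, 64.2% and 63.3% in UC 1 to UC 5. They lay on all 20 chromosomes and held few CpGs, with a median of 284 against 467 over all windows. The called higher windows stood at 68.2%, 66.5% and 66.9% in the controls and at 76.6%, 76.1%, 71.6%, 72.5% and 71.8% in UC 1 to UC 5, on 19 chromosomes. Their median CpG number was 404.

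In the called higher windows UC 1 and UC 2 were the highest and UC 3 the lowest of the UCs, and in the called lower windows UC 4 and UC 5 were the lowest. These medians are of windows chosen for the difference and are given as a description. CpG-dense CpGs of the same windows, which the call did not use, differed by a median of 3.92 points in the called higher windows and 0.644 points in the called lower windows, against 2.22 points over all windows. The same rule applied to the CpG-dense CpGs called 285 windows higher (16.4%) and 5 lower (0.288%).

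Taken 1 at a time, the UCs ordered themselves from gain to loss. UC 1 lay above every control in 1094 windows and below every control in 369. For UC 2 the counts were 901 above and 560 below, and for UC 3 they were 390 above and 930 below. UC 4 was above in 414 and below in 1023 windows, and UC 5 above in 339 and below in 1162. The median difference from the control mean fell accordingly, at 1.88, 0.833, -0.974, -1.42 and -2.20 points in UC 1 to UC 5.

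Large moves were counted in the same way. Windows over 5 points below the control mean numbered 51, 98, 78, 242 and 365 in the order UC 1 to UC 5. Windows over 5 points above it numbered 272, 194, 8, 39 and 28. UC 3 had few large moves upward, whereas its 78 downward were more than the 51 of UC 1. Between the mean of UC 1 and UC 2 and that of UC 4 and UC 5 the median window differed by 3.11 points, with 263 windows over 5 points higher in the first pair and 0 over 5 points lower.

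The 10 windows named for the largest decrease, among those called with every UC below every control, differed by -18.3 to -9.31 points. The first, chr4:89000001-90000000 with 227 CpGs, had levels of 77.3%, 78.8% and 81.2% in the controls and of 61.5%, 60.4%, 62.3%, 63.9% and 55.6% in UC 1 to UC 5 (quasi-binomial model with limma, adjusted p = 5.02e-06). A single 10-kb block with 4 CpGs held 26.7% of its calls and went from 51.6% in the controls to 27.5% in the UCs. Without this block the window differed by -3.89 points, and its median CpG by -0.150 points. The UCs also had 1.27 to 1.80 times the controls' share of calls in this window, and the part of that excess in the difference was not tested.

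A similar single block lay in chr12:1000001-2000000, with 734 CpGs. The window stood at 70.6%, 72.1% and 70.0% in the controls and at 65.6%, 61.5%, 62.0%, 59.9% and 58.4% in UC 1 to UC 5, and all UCs were below all controls. One 10-kb block with 17 CpGs held 49.0% of the calls. The difference was -9.42 points with the block and -1.66 points without it, and the median CpG differed by 0.749 points.

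Other large decreases were spread over the window. In chr16:78000001-79000000, with 230 CpGs, the controls stood at 74.3%, 74.7% and 75.9% and the UCs at 68.0%, 67.1%, 65.4%, 61.5% and 60.3%. Of its 37 10-kb blocks with 3 or more CpGs, 30 were lower in the UCs and 7 higher. The most influential block of a window is the 10-kb block whose removal changed the window's difference most. With this block the difference was -10.5 points here, and without it -11.0 points. In chr19:8000001-9000000, with 235 CpGs, the controls stood at 74.3%, 75.8% and 75.9% and the UCs at 67.9%, 62.8%, 67.3%, 63.9% and 63.5%, with 34 blocks lower and 9 higher.

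The same spread was seen in chr16:45000001-46000000, a window of 225 CpGs that fell by 10.1 points, with 29 blocks lower and 6 higher. Its UCs were uneven, from 73.5% in UC 1 through 67.1%, 65.2% and 63.5% down to 60.6% in UC 5, against 75.6%, 77.6% and 75.1% in the controls. In chr5:26000001-27000000, with 255 CpGs, the difference was -10.0 points, with 29 blocks lower and 10 higher. UC 3 was the highest of its UCs at 73.5% and UC 5 the lowest at 62.9%, below controls of 78.2%, 79.8% and 77.6%.

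In chr9:20000001-21000000, with 509 CpGs, a block of 25 CpGs went from 59.7% in the controls to 7.87% in the UCs. The window itself stood at 68.9%, 70.2% and 69.7% in the controls and at 60.4%, 56.1%, 61.4%, 57.3% and 55.8% in UC 1 to UC 5. Its difference of -11.4 points became -8.70 points without that block, with 32 blocks lower and 27 higher. UC 3 had 1.82 times the controls' share of calls here, and the part of that in its level was not tested.

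The remaining named decreases were chr16:22000001-23000000 at -9.47 points, chr2:226000001-227000000 at -9.37 points and chr18:13000001-14000000 at -9.31 points. Without the most influential block of each they stood at -8.10, -7.86 and -10.8 points. These windows held 276, 304 and 221 CpGs. In the window chr16:22000001-23000000 the decrease was uneven: 25 blocks were lower and 16 higher, and the median CpG differed by 0 points. Its difference was -4.05 points from the mean of the CpG levels and -3.38 points with tiles of under 8 CpGs. The CpG-dense CpGs of the window on chromosome 18 were 9.54 points higher in the UCs, so that its CpG-poor and CpG-dense CpGs differed in opposite directions.

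The 10 windows named for the largest increase differed by 7.52 to 9.05 points. The first, chr6:77000001-78000000 with 418 CpGs, stood at 57.2%, 54.2% and 55.2% in the controls and at 67.7%, 70.7%, 60.2%, 61.7% and 62.5% in UC 1 to UC 5 (quasi-binomial model with limma, adjusted p = 0.00364). UC 1 and UC 2 were the highest and all UCs were above the controls. Of its 59 blocks with 3 or more CpGs, 42 were higher in the UCs and 17 lower. Its most influential block, with 12 CpGs, went from 38.4% to 73.4%, and the window differed by 7.57 points without it.

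The window chr3:142000001-143000000 was the least methylated of the named ones. Its 219 CpGs stood at 43.6%, 41.9% and 40.4% in the controls and at 55.9%, 58.3%, 46.0%, 48.0% and 45.9% in UC 1 to UC 5. Its difference of 8.83 points was carried by UC 1 and UC 2 more than by the others, and the exact permutation test gave p = 0.0714. It holds a region that the study assigned to Sstr4, which encodes a somatostatin receptor, in a list of promoters chosen for high methylation in these same UCs. The most influential block of the window, with 9 CpGs, went from 8.53% to 57.5%, and without it the difference was 6.30 points. Over the window 18 blocks were higher and 17 lower.

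Adjacent windows on chromosome 1 both rose. In chr1:131000001-132000000, with 468 CpGs, the controls stood at 61.8%, 61.4% and 62.8% and the UCs at 73.2%, 72.0%, 67.1%, 70.2% and 69.7%, with 44 blocks higher and 16 lower. It holds a region assigned by the study to Nr2f2, which encodes the orphan nuclear receptor COUP-TFII, in the same list. The next window, chr1:132000001-133000000 with 217 CpGs, stood at 69.8%, 65.9% and 66.9% in the controls and at 80.3%, 81.3%, 74.1%, 73.9% and 71.2% in UC 1 to UC 5 (8.61 points, exact permutation test, p = 0.0536). The share of calls in the first of these windows was 0.801 in UC 1 and 0.859 in UC 2 of that in the controls.

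The steadiest increase was in chr18:2000001-3000000, with 234 CpGs. The controls stood at 60.0%, 59.9% and 60.9% and the UCs at 66.9%, 69.7%, 67.4%, 67.2% and 68.0%, a difference of 7.57 points with an SD of 1.10 points among the UCs. Its CpG-dense CpGs were 18.5 points higher in the UCs. No other named window had so small a spread among its UCs.

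The window chr5:100000001-101000000, with 338 CpGs, differed by 8.59 points, from 63.3%, 64.4% and 63.5% in the controls to 76.1%, 76.1%, 67.3%, 71.7% and 70.6% in UC 1 to UC 5. UC 1 and UC 2 had only 0.496 and 0.563 times the controls' share of calls in it, and UC 3 had 0.783 times, whereas UC 4 and UC 5 had 0.903 and 0.982 times. The part of the share of calls in this result was not tested.

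The other named increases were chr9:69000001-70000000 (8.19 points), chr3:56000001-57000000 (7.55 points), chr1:35000001-36000000 (7.54 points) and chr9:37000001-38000000 (7.52 points). In the first of them the controls stood at 72.7%, 70.2% and 72.1% and the UCs at 82.7%, 83.1%, 75.4%, 78.8% and 79.3%. UC 3 was the lowest UC in 7 of these 10 windows, among them all 4 named here. Without the most influential block of each, the 10 windows differed by 5.77 to 8.75 points. No single block thus carried an increase in the way it did in 2 of the decreases.

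**Figure D2:**
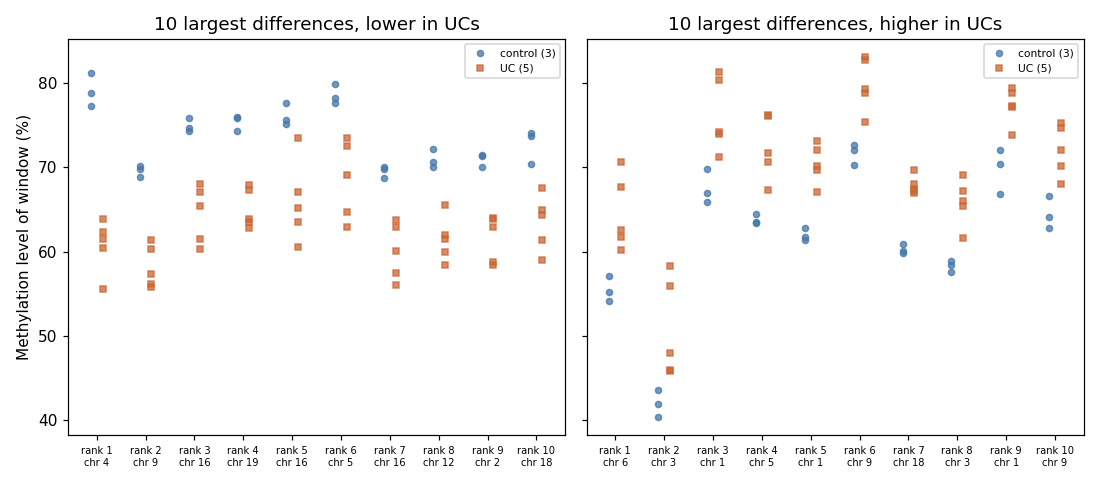
Methylation level (%) of the 10 windows with the largest decrease (left) and the 10 with the largest increase (right), each point 1 sample, controls as circles and UCs as squares, ordered by the size of the difference with the chromosome under each rank. In each window all 5 UCs lie on 1 side of all 3 controls, since the windows were chosen so, and the UCs are spread more widely than the controls in most of them.

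Differences of 10-kb blocks were spread more widely than those of windows. Over 102993 10-kb blocks with 3 or more CpGs the SD of the difference was 13.5 points, with 17.9% of blocks below -10 points and 15.1% over 10 points. Over the 1-Mb windows 0.340% were below -10 points and 0 over 10 points. A block rests on far fewer calls than a window, and its counting error was not estimated. The part of counting error in the wider spread of blocks was not tested. In the median window 48.0% of blocks were lower in the UCs, against 66.3% (range 41.7% to 85.7%) in the called lower windows and 32.3% (16.2% to 48.6%) in the called higher windows. Over 50% of blocks were lower in 111 of the 117 called lower windows, and under 50% were lower in all 61 called higher windows. These blocks hold the calls by which the windows were called. A majority in the called direction therefore follows largely from that choice and is given as a description.

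The difference was partly shared across a window. When the 10-kb blocks of each window were divided alternately into 2 sets, the differences of the 2 sets had a Pearson correlation of 0.426 over the 1765 windows, and with 100-kb blocks of 0.329. For the control level the values were 0.512 and 0.382. These are descriptions, since the sets share the 8 samples and their sequencing. In 9 windows 1 block held over 25% of the calls, and 3 of these were called, all lower: the windows on chromosomes 4 and 12 above and chr16:1-1000000, which differed by -6.69 points with the block and -5.44 points without it.

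Along the chromosomes, differences of neighbouring windows were weakly alike and the likeness ended within a few megabases. The Pearson correlation of the group difference in a window with that in the next was 0.151 (1486 pairs of adjacent members). It was 0.0317 at 2 Mb, 0.0561 at 5 Mb, -0.00566 at 10 Mb and 0.0377 at 20 Mb. Differences between 2 controls gave -0.0127 to 0.0133 at 1 Mb, and differences between 2 UCs gave 0.0361 to 0.109. Taken singly against the control mean, UC 1 to UC 5 gave 0.0913, 0.138, 0.167, 0.144 and 0.164.

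The levels themselves were more alike than their differences. Their correlation between adjacent windows was 0.368, 0.356 and 0.353 in the controls and 0.322, 0.351, 0.386, 0.359 and 0.364 in UC 1 to UC 5. The groups overlapped (exact permutation test on these 8 values, p = 0.821). CpG number itself was correlated at 0.572 between adjacent windows, and adjacent windows share the library and its depth.

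**Figure D3:**
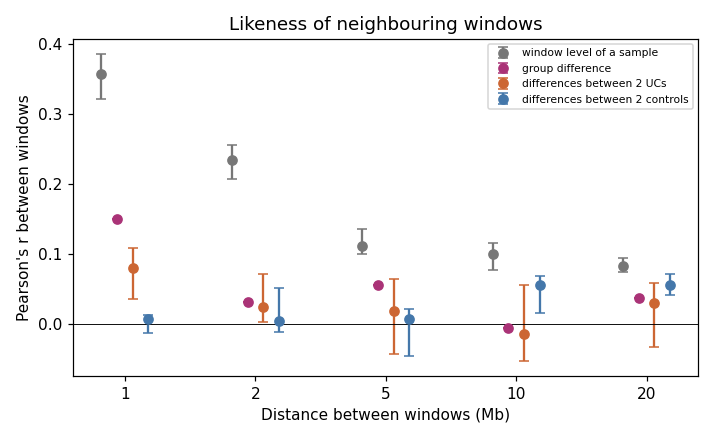
Pearson correlation between windows 1, 2, 5, 10 and 20 Mb apart, for the levels of a sample, the group difference, and the differences between pairs of UCs or of controls; points are medians over samples or pairs and bars run from the lowest to the highest. The group difference stands at 0.151 at 1 Mb, above every pair of controls, and near 0 from 2 Mb on.

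Long blocks of loss were few. The 117 called lower windows formed 104 runs, of which 94 were a single window, 8 held 2 windows and 2 held 3 or more. Of the 98 called lower windows followed by another member, 13 (13.3%) were followed by a called lower window and 1 by a called higher one. Over all windows 6.63% were called lower and 3.46% higher. Called lower windows also gathered in CpG-scarce windows, and adjacent windows were alike in CpG number. The part of CpG number in these counts was not tested. The 61 called higher windows formed 59 runs, none longer than 2 windows. Of the 47 followed by a member, 2 (4.26%) were followed by another called higher window, near the 3.46% of all windows.

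The longest run of loss was chr15:100000001-104000000, with 4 windows. Their mean level was 77.0%, 78.1% and 77.6% in the controls and 72.7%, 71.4%, 73.4%, 68.4% and 68.6% in UC 1 to UC 5, a difference of -6.66 points with windows between -7.54 and -5.85. The share of calls in this run was 0.969 to 1.15 times that of the controls in the UCs.

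The second, chr20:15000001-18000000, differed by -5.29 points over 3 windows. The controls stood at 77.1%, 78.9% and 78.6% and the UCs at 75.6%, 73.8%, 73.0%, 71.9% and 70.3%. UC 1 and UC 2 had 0.554 and 0.653 times the controls' share of calls there, whereas UC 4 and UC 5, with 1.02 and 1.07 times, were the lowest. The part of the share of calls in this run was not tested. The next was chr1:86000001-88000000, which fell by 7.44 points over 2 windows, from 64.7%, 64.3% and 64.7% to 61.0%, 57.6%, 58.4%, 55.2% and 53.4%.

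The runs of gain were chr1:131000001-133000000, already described, at 8.53 points, and chr6:77000001-79000000 at 8.07 points. In the latter the mean level was 59.7%, 59.3% and 58.4% in the controls and 69.9%, 71.5%, 62.9%, 66.4% and 65.4% in UC 1 to UC 5. UC 3 again moved least. All other called higher windows stood alone.

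Smaller differences extended further. The longest stretch of adjacent windows with a difference below 0 was 11 windows, chr10:100000001-111000000, with a mean difference of -2.23 points. Here UC 1 lay among the controls, at 67.6% against 67.8%, 66.7% and 67.5%, and the other UCs were lower, at 66.1%, 65.4%, 63.9% and 62.5%. The longest stretch above 0 was 9 windows on chromosome 8, with a mean of 2.06 points. In 10-Mb segments with 5 or more windows the mean difference ran from -3.68 to 2.84 points (median -0.450) and was below 0 in 127 of 193 segments.

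**Figure D4:**
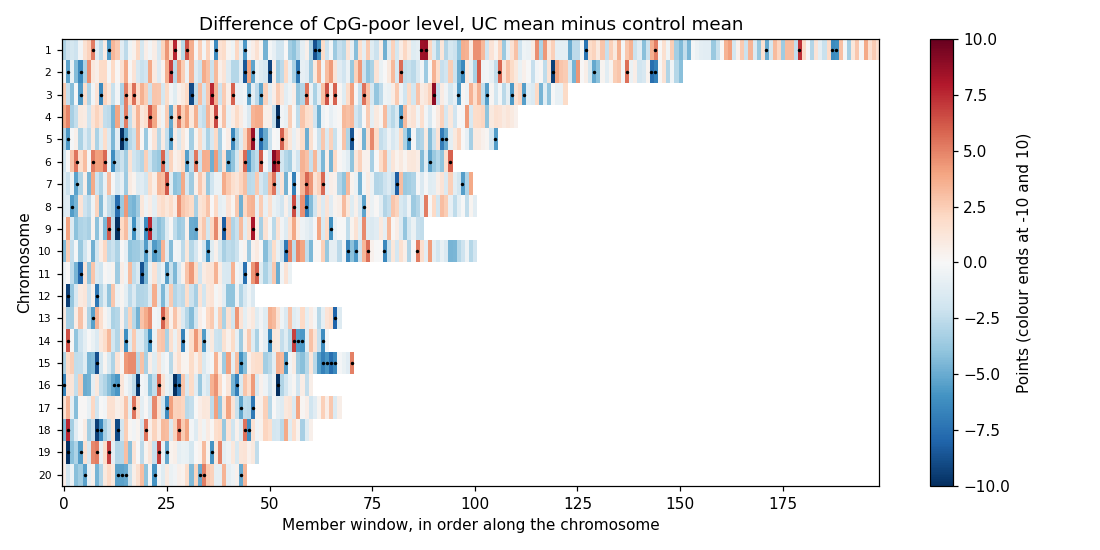
Difference of methylation level (points, UC mean minus control mean, colours ending at -10 and 10) of the 1765 windows in order along chromosomes 1 to 20, with a dot on each called window. Blue (117 called lower) and red (61 called higher) are mixed along the chromosomes, called higher windows being on 19 of the 20, and most called windows stand alone, the run of 4 near the end of chromosome 15 being the longest.

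No chromosome passed the test on its median level (exact permutation test, adjusted p over the 20 chromosomes 0.902 or more, and 0 with an unadjusted p under 0.05). The median difference was lowest on chromosome 10, at -1.78 points, where the median level was 68.2%, 66.9% and 67.9% in the controls and 68.1%, 67.6%, 66.2%, 65.4% and 64.6% in UC 1 to UC 5. It was highest on chromosome 4, at 0.880 points, although the chromosome's median level there was 0.364 points lower in the UCs than in the controls, since the middle windows were not the same ones. UC 1 and UC 2 overlapped the controls or exceeded them on both.

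Relative to the median window of each sample, the largest difference between the groups was on chromosome 12. Its median level lay at -0.279, -0.493 and -0.0866 points from that median in the controls and at -1.68, -2.10, -1.55, -1.96 and -2.42 points from it in UC 1 to UC 5. Every UC was thus below every control (difference -1.66 points, exact permutation test, p = 0.0179, adjusted p = 0.0510). The same p and adjusted p were reached by 6 other chromosomes. Of these, chromosomes 16, 5 and 9 were lower in the UCs, by -1.16, -0.889 and -0.769 points, and chromosomes 13, 6 and 11 were higher, by 1.04, 0.765 and 0.648 points. Chromosome 12 had the most CpGs per window, with a median of 857. The setting relative to the median window and the choice of these chromosomes were made after the data had been seen.

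UC levels followed control levels closely, and the difference was weakly related to the control level. Control and UC levels had a Pearson correlation of 0.861 over the 1765 windows. The difference had one of -0.169 (Spearman -0.129) with the control level, which enters the difference itself. Set against control 1 alone, with the difference taken from controls 2 and 3, it was -0.151, and set against the mean of both group means it was 0.104. The sign of the relation therefore changed with the level used.

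Where the called lower windows lay depended on the ranking. In 4 groups of windows of about equal number, from the lowest to the highest control level, the median difference was -0.0450, -0.238, -0.294 and -1.12 points. Called lower windows numbered 21, 22, 21 and 53 in these groups and called higher ones 28, 15, 14 and 4. With control 1 alone to rank the windows the counts were 23, 22, 20 and 52 lower and 28, 14, 14 and 5 higher. Ranked by the mean of both group means they were 39, 27, 24 and 27 lower and 16, 12, 14 and 19 higher, and by the mean over all 8 samples 44, 27, 25 and 21 lower and 14, 14, 11 and 22 higher. The group with the most lower calls was thus the highest when ranked by the control level or by control 1 alone. It was the lowest by the rankings that also used the UCs.

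The unevenness of CpG-poor methylation was compared by the SD over windows. The SD of the levels over the windows was 5.43, 5.73 and 5.63 points in the controls and 6.09, 6.03, 5.77, 5.90 and 6.14 points in UC 1 to UC 5, so that every UC was above every control. The means were 5.60 ± 0.152 and 5.99 ± 0.150 points (SD, n = 3 and 5; exact permutation test, p = 0.0357, adjusted p = 0.0804). With merged pairs the difference was 0.327 points (exact permutation test, p = 0.1, the smallest possible). It was 0.0516 points with a minimum of 100 CpGs (exact permutation test, p = 0.768) and -0.0583 points with tiles of under 8 CpGs. Without UC 1, UC 2, UC 4 or UC 5 the exact permutation test gave p = 0.0571 each time.

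The contrast between the most and the least methylated windows took its direction from the samples that ranked the windows. Between the highest and lowest of the 4 groups by the mean over all 8 samples it was 12.8 ± 0.271 points in the controls and 14.4 ± 0.233 points in the UCs (SD, n = 3 and 5; 1.55 points, exact permutation test, p = 0.0179, the smallest possible, adjusted p = 0.0804). That ranking rests on 5 UCs and 3 controls. With the windows ranked by the control level the contrast was smaller in the UCs by -1.25 points, and ranked by control 1 alone by -1.05 points. Ranked by the mean of both group means, which weights the groups equally, it was larger in the UCs by 1.02 points. By the UC level it was larger by 2.98 points. These other rankings were chosen after the data had been seen.

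CpG number was related to the level and hardly to the difference among the members. The control level had a Pearson correlation of -0.278 with CpG number over the 1765 windows, so that windows with many CpG-poor CpGs were less methylated. The group difference had one of -0.00178 (Spearman 0.0334), and its size, without sign, one of -0.146. In 4 groups of 200 to 317, 317 to 467, 467 to 657 and 657 to 1597 CpGs the median difference was -1.13, -0.143, 0.0611 and -0.606 points, lowest at the CpG-scarce end and again below 0 at the CpG-rich end.

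The called windows followed this pattern. Called lower windows numbered 68, 16, 13 and 20 in the 4 groups and called higher ones 16, 20, 16 and 9. The level of the CpG-richest group minus that of the CpG-scarcest was -3.83 ± 0.255 points in the controls and -3.35 ± 0.419 points in the UCs (SD, n = 3 and 5; 0.485 points, exact permutation test, p = 0.179). Its sign depended on the CpGs used: it was -0.916 points with 10 or more reads per CpG, -0.573 points with tiles under 3 CpGs and -0.950 points with a minimum of 500 CpGs, but 3.77 points with a minimum of 100 CpGs.

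The minimum of 200 CpGs lay where the difference was changing. Among the windows just outside it, with 199 CpGs, chr1:228000001-229000000 differed by -3.95 points and chr17:89000001-90000000 by -6.11 points. Just inside it, with 200 CpGs, chr1:107000001-108000000 differed by -1.31 points and chr1:171000001-172000000 by 2.92 points.

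Below the minimum, 863 windows held 106947 CpGs and stood at 73.3%, 74.8% and 74.2% in the controls and at 73.2%, 71.2%, 70.0%, 67.7% and 66.6% in UC 1 to UC 5. Pooled over these CpG-scarce windows every UC was below every control, UC 1 only narrowly, whereas in the members UC 1 and UC 2 were above. In windows of 150 to 199 CpGs alone, UC 1 stood at 72.9%, above the 72.7% of controls 1 and 3. In windows of 50 to 99 CpGs the mean level was 77.0% ± 0.745 in the controls and 70.9% ± 2.85 in the UCs (SD, n = 3 and 5; -6.08 points, exact permutation test, p = 0.0357, adjusted p = 0.241 over 9 bins of CpG number). The difference was -4.78 points at 100 to 149, -3.09 points at 150 to 199, -1.10 points at 200 to 299 and -0.157 points at 300 to 399 CpGs. It reached 0.00778 points at 500 to 699 and was -1.41 points at 1000 to 1597 CpGs. Reads per CpG rose over the same bins from 19.0 to 22.9.

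**Figure D5:**
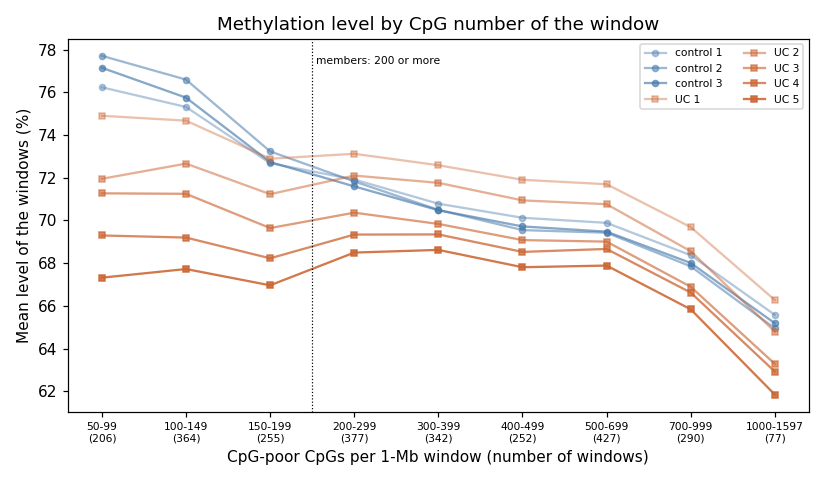
Mean methylation level (%) of windows in 9 bins of CpG number, with the number of windows in each bin under its label, 1 line per sample; the dotted line marks the minimum of 200 CpGs. The level falls over the first 7 bins from 76.2% to 69.9% in control 1 but goes only from 67.3% to 67.9% in UC 5, and all 5 UCs lie below the controls at 50 to 99 CpGs and on both sides of them from 200 CpGs on.

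The members were set against the 825 windows of 50 to 199 CpGs, a comparison chosen after these values were seen. The mean level of the members minus that of these windows was -4.64, -6.12 and -5.44 points in the controls and -2.54, -1.40, -1.88, -0.588 and 0.160 points in UC 1 to UC 5. The difference was 4.15 points (exact permutation test, p = 0.0179, the smallest possible, adjusted p = 0.0536 over 3 values). It was 4.10 points with merged pairs and 3.79 to 4.53 points with each sample left out in turn. Every UC, whether it gained or lost over the members, was thus lower in CpG-scarce windows relative to the members than every control.

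Extending the members to windows of 100 CpGs or more changed the clustering as well. It called 335 windows lower and 79 higher, and 218 of the 619 windows added (35.2%) were lower. The correlation of the difference between adjacent windows rose to 0.291, and 18 runs of called lower windows held 3 or more. The longest, of 5 windows, was chr2:14000001-19000000, with a mean of 80.6%, 82.6% and 81.7% in the controls and of 76.4%, 72.1%, 73.0%, 71.9% and 70.8% in UC 1 to UC 5, a difference of -8.80 points.

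The difference of the CpG-poor CpGs of a window was only weakly related to that of its CpG-dense CpGs, with a Pearson correlation of 0.194 over 1735 windows, which share samples and depth. It had a correlation of -0.0172 with the mean share of calls of the UCs in the window. That share was under 0.7 of the controls' in 88, 88, 16, 0 and 0 windows of UC 1 to UC 5. It was over 1.5 in 4, 5, 3, 13 and 14 windows, and in the controls no window passed either limit. Without chromosomes 1, 5, 11 and 20 the calls were 86 lower and 50 higher of 1359 windows.

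The study's list of promoters highly methylated in these UCs has a region in 192 of the member windows. CpG-poor DNA of these windows differed by a median of -0.593 points, with 8 called lower and 5 higher, against -0.370 points in the other 1573 windows, with 109 lower and 56 higher. The list was chosen on these samples. The share called lower was thus 8 of 192 in the windows with such a promoter, beside the 6.63% of all windows.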

How the data were processed

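RRBS libraries of 5 UCs and 3 control bladders were analysed. The authors trimmed the reads and mapped them with RRBSMAP to rn6, discarding multiple alignments. Of reads that shared barcode and coordinates they kept 1. At every CpG the deposited columns hold counts: C calls, and C plus T calls. The effective counts that the authors deposited beside them are expected counts, corrected for base variants, and were used in 1 alternative. A fraction was also deposited and was not used. No CpG had under 3 reads. No genome of rn6 was used here, so no sequence or gene content of the windows is given.

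Counts were summed over the shared CpG-poor CpGs of each window, and the level was taken as C calls over C and T calls. The windows, tests and lists were chosen with earlier results of these data known. Window tests used a quasi-binomial fit of the counts, with dispersion moderated and trended with limma 3.58.1 in R 4.3.3, an F-test and Benjamini-Hochberg adjustment over all 1765 windows. The model was also run on simulated data with known answers, in which samples varied independently and with the same spread in both groups. The UCs here were more spread than the controls and some were alike in pairs, which that simulation does not cover. Single values per sample were compared by a two-sided exact permutation test, with 56 ways of dividing the 8 samples and a smallest p of 0.0179. Nothing in the sources says that the UCs are of separate rats, so p-values measure the spread between these samples. Standard errors of levels cover counting error only. Python 3.11.15, numpy 2.4.6, pandas 2.3.3, scipy 1.17.1 and matplotlib 3.10.9 were used.

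The windows named are the 10 largest differences in each direction among windows called with every UC on 1 side of every control, the longest run of called windows in each direction with the next 2, the chromosomes with the highest and lowest median difference and the 2 windows nearest to 200 CpGs on each side. Named outside this rule, with values known, were chromosomes 5, 6, 9, 11, 12, 13 and 16, the window on chromosome 16 with a heavy block, the longest stretches of 1 sign and the longest run with a minimum of 100 CpGs. Alternatives were other read minimums, window and tile sizes and CpG minimums, the mean of CpG levels, the effective count, chromosomes left out, samples left out or merged, an F-test on percentages, limma on M values, no moderation or no trend, a replicate block and other difference limits. Levels relative to the median window of each sample and other rankings of the windows were added after the data had been seen.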

Additional observations from a re-analysis of the deposited data

Results flagged for a closer look

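Of the values compared between the groups, the contrast between the most and the least methylated windows, larger in the UCs by 1.55 points, passed an exact permutation test (p = 0.0179, the smallest possible), but took the opposite sign with windows ranked by the control level. The gap between CpG-poor and CpG-dense levels of the same windows, narrower in the UCs by -3.10 points, also passed (exact permutation test, p = 0.0357). Adjusted over the 9 values compared, both exact permutation tests gave p = 0.0804. The SD of window levels (exact permutation test, p = 0.0357) and the median CpG-dense level (exact permutation test, p = 0.0179) passed unadjusted as well. Their adjusted p was also 0.0804. Among the 5 UCs, 48 results were examined for a sample far from the others, and 0 had one. Chance would give about 2.4 if the results were independent. They share the windows and the UCs, so no conclusion is drawn from this count.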

How the results depend on the processing

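Over the alternatives to the 16 results that summarise the windows, 242 of 333 values stayed the same. Same meant the same side of the threshold, within 1.5 times a count or, for untested correlations, within the SD over the single UCs. Of the rest, 18 lost significance, 3 gained it, 52 moved and 18 changed sign. The correlation with CpG number, near 0, also crossed 0 in several settings. For the 20 named windows 378 of 407 calls held, 29 were lost and 0 changed sign. The causes were not tested. By construction, fewer windows leave fewer to count. Leaving out a sample can only keep or raise the number of windows with every UC on 1 side of every control. Counting error of window levels was smaller than the spread between samples, but the read minimum changed several results.

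The 117 lower and 61 higher calls became 45 and 33 with 10 or more reads per CpG, 340 and 227 in 500-kb windows, 32 and 10 in 2-Mb windows, 30 and 21 with a minimum of 500 CpGs, 54 and 21 with an F-test on percentages, 54 and 20 without moderation, 207 and 127 without a minimum difference, and 6 and 0 with one over 10 points. Lower calls were 335 with a minimum of 100 CpGs. Higher calls were 24 with tiles under 3 CpGs and 24 from the mean of CpG levels. The windows tested differed as well, from 1765 to 964 with 10 or more reads and 1128 with tiles under 3 CpGs. They numbered 3387 and 936 in 500-kb and 2-Mb windows, and 2384 and 794 with minimums of 100 and 500 CpGs. Leaving out each sample gave 68 to 160 lower and 30 to 81 higher calls. With a replicate block there were 96 lower and 63 higher calls; the labels give no pairing behind the numbers. The F-test and the lack of moderation each ended 11 of the 20 named calls, and the mean of CpG levels ended 3.

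Windows with every UC below every control (297) numbered 177 with 10 or more reads, 579 and 139 in 500-kb and 2-Mb windows, 551 and 127 with minimums of 100 and 500 CpGs, and 297 to 501 with each sample left out (501 without UC 1). Windows with every UC above (217) numbered 126 with 10 or more reads, 461 and 107 in 500-kb and 2-Mb windows, 73 with tiles under 3 CpGs, 93 with a minimum of 500 CpGs and 397 relative to the median window of the sample, a setting added after the data had been seen. The windows tested in these settings are those given above, so the counts of different settings do not share a total.

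The difference of SD (0.390 points) was -0.0583 with tiles under 8 CpGs, 0.0516 with a minimum of 100 CpGs, 0.327 with merged pairs and 0.306 to 0.455 with samples left out, losing significance in 4 of those 8 cases. The contrast of high and low windows (1.55 points) was 0.359, 0.629 and 0.897 under the first 3 of these. It was -1.25 ranked by control level but 1.02 ranked by the mean of both group means. The CpG-rich minus CpG-scarce contrast (0.485 points) was -0.916 with 10 or more reads, -0.573 and 0.844 with tiles under 3 and 8 CpGs, 3.77 and -0.950 with minimums of 100 and 500 CpGs, and 0.829 from the mean of CpG levels. The gap of CpG-poor to CpG-dense levels (-3.10 points) was -3.14 in 2-Mb windows, -1.68 with tiles under 8 CpGs, -3.05 with merged pairs and -3.74 to -2.50 with samples left out, and lost significance in 6 of those 8 cases.

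The correlation of the difference between adjacent windows (0.151) was 0.110 with 10 or more reads, 0.112 in 2-Mb windows, 0.118 with tiles under 3 CpGs and 0.291 with a minimum of 100 CpGs. That with the control level (-0.169) was -0.0600 with 10 or more reads, -0.137 in 2-Mb windows, -0.0526 and -0.242 with tiles under 3 and 8 CpGs, -0.334 and -0.00555 with minimums of 100 and 500 CpGs, -0.115 from the mean of CpG levels and -0.206 to -0.157 with samples left out. That with CpG number (-0.00178) was -0.142 with 10 or more reads, -0.0814 with tiles under 3 CpGs, 0.257 and -0.181 with those minimums and 0.0430 from the mean of CpG levels.

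Values that did not pass the test also changed sign. The difference in the share of methylated calls (-0.341 points) was 0.254 with tiles under 8 CpGs and -0.864 to 0.117 with samples left out, and that in the median window (-0.480 points) was 0.170 with those tiles. The difference in the correlation of levels between adjacent windows (-0.00282) was 0.00147 with 10 or more reads, 0.0204 with tiles under 3 CpGs, 0.0254 with a minimum of 500 CpGs, 0.00471 with merged pairs and -0.0102 to 0.00578 with samples left out. That in windows under 50% (-0.106% of windows) was 0.263 with 10 or more reads, 0.195 in 500-kb windows, 0.0887 with tiles under 3 CpGs and 0.00559 with a minimum of 100 CpGs.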
